A study of Mus musculus with 24 samples.

Results

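Transcript isoforms, the alternative RNAs of a gene, were compared between mice heterozygous (het) for Cntnap2 and wild-type mice. The comparison took all 12 RNA libraries of the series, 6 het and 6 wild-type, out of 24 samples; the other 12 samples are libraries of the DNA mark 5hmC and were not used here. The mice were female C57BL/6, and each library came from the micropunched striatum of 1 animal, per the labels. The dams of the stressed groups went through 7 days of variable stress from embryonic day 12.5; the other dams did not. The groups were het unstressed, het stressed, wild-type unstressed and wild-type stressed, with 3 libraries each, and the dams carried embryos of both genotypes, per the labels. Which Cntnap2 allele the het mice carry, and the age at which the tissue was taken, are unstated in the labels.

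A gene can make several RNAs from different start sites, by joining different exons, or by ending in different places. Cntnap2 encodes Caspr2, a cell adhesion protein of the neurexin superfamily that spans the neuronal membrane and is known for gathering potassium channels beside the nodes of myelinated axons. It is a large gene with more than one start site, so that long and short RNAs of it can differ in their first exons.

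RSEM, which assigned the reads per the submitters' processing notes, gives each transcript an expected count and a TPM (a level corrected for transcript length and scaled to the same sum in every library). Isoform share is here the TPM of a transcript as a percentage of the summed TPM of its gene, so that it does not move with the gene's total. The files list 95451 transcripts of 37289 genes, and 14928 genes have at least 2 transcripts. Level was tested for 37796 transcripts and share for 19238 transcripts of 6539 genes.

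The het libraries held 21410135 to 24039706 expected counts and the wild-type libraries 13587153 to 18538305, so genotype and depth cannot be told apart in the libraries as deposited. Libraries also differed in how their signal depended on transcript length. The length slope of a library is the slope of its log2(TPM + 1), as deviations from the 12-library mean, on log2 transcript length. It ran from -0.181 (replicate 1, unstressed) to 0.0916 in het libraries and from -0.160 (replicate 1, unstressed) to 0.174 in wild-type libraries, where replicate 3 of both prenatal conditions was highest. Wild-type stressed replicate 2 had 1.32 TPM of Xist, an RNA made from the inactive X chromosome of females, against 23.1 to 108.6 TPM in the other 11 libraries, a level that goes against its female label. Without that library, the long Cntnap2 transcript had a log2 fold change of -0.83 with the length slope in the model described below (edgeR adjusted p = 0.0269), against -0.82 with all 12 libraries, and the single call made without the slope, Gm6736, was lost. The file of het unstressed replicate 1 carries another animal number than its label. The striatal label was checked with 11 markers of medium spiny neurons, the main cell type of the striatum. They summed to 3913 to 8377 TPM in het and 5386 to 8834 TPM in wild-type libraries.

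RefSeq lists 2 starts for Cntnap2, both on the forward strand of chromosome 6 and 2184335 bases apart. Their promoter windows, from 250 bases before to 50 bases after each start in GRCm38.p6, are shown because the transcripts that follow differ in length and in their fitted difference between the genotypes. Capitals mark CpG, the dinucleotide at which DNA is methylated.
Upstream start, chr6:45059811-45060110: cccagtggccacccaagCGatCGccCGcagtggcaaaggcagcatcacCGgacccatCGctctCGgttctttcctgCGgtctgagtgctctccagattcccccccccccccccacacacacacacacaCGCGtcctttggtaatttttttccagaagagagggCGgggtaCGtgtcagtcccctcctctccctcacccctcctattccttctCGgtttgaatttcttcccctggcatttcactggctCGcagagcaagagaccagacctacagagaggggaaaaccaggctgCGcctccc
Downstream start, chr6:47244146-47244445: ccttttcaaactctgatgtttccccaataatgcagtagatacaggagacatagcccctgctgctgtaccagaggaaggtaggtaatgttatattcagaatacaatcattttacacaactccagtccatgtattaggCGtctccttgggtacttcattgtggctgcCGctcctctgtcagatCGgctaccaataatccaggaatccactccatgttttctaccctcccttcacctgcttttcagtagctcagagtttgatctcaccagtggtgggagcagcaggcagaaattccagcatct
The upstream window holds 14 CpG and 59.7% G or C, and the downstream window 3 CpG and 46.3% G or C. Over 32851 RefSeq windows of the same length the median was 7 CpG. The letters TATAAA stand in neither window on either strand, and in 13.6% of all windows. Neither the files nor the RefSeq tables say which of the transcripts below uses which start.

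The files list 3 transcripts of Cntnap2, all on chromosome 6. The short transcript ENSMUST00000060839.6, of 1625 nucleotides, made up most of the gene's RNA in every library. The long transcript ENSMUST00000114641.1, of 6983 nucleotides, was called lower in het mice once the length slope was in the model, and the short one was not called. The third, ENSMUST00000150737.1, of 340 nucleotides, was low and variable in both genotypes and was too rare for the edgeR test.

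The long Cntnap2 transcript had 1.89, 5.21 and 6.83 TPM in unstressed and 7.46, 5.87 and 7.08 TPM in stressed het mice, against 4.12, 7.22 and 19.49 TPM in unstressed and 7.50, 7.33 and 22.86 TPM in stressed wild-type mice. The highest wild-type values came from the pair of libraries with the highest length slopes, the lowest het and wild-type values from the pair with the lowest slopes, and the genotypes overlapped. The 6 het libraries averaged 5.72 ± 2.05 TPM and the 6 wild-type libraries 11.4 ± 7.73 TPM (SD). On log2(TPM + 1) the difference was -0.74 (two-sided exact permutation p = 0.134, adjusted p = 0.273 over 6 Cntnap2 tests), and the log2 fold change by edgeR's quasi-likelihood test was -0.97 ± 0.33 (SE; unadjusted p = 0.0143, adjusted p = 1 over all transcripts).

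Its share of Cntnap2 RNA was 4.44, 14.5 and 14.9% in unstressed and 16.4, 11.9 and 11.9% in stressed het mice, against 9.46, 17.9 and 35.4% in unstressed and 18.9, 17.2 and 33.5% in stressed wild-type mice. All 6 het shares lay below the 5 highest wild-type shares, and only wild-type unstressed replicate 1 fell among them. The mean share was 12.3 ± 4.25% over the 6 het and 22.1 ± 10.2% over the 6 wild-type libraries (SD), and they differed by -9.72 percentage points (two-sided exact permutation p = 0.0498, adjusted p = 0.273 over the same 6 tests). The short transcript held 83.8 ± 5.44% over the 6 het libraries and 74.2 ± 12.5% over the 6 wild-type libraries (SD; exact permutation p = 0.136). Its level averaged 38.9 ± 7.03 TPM over the het libraries and 34.8 ± 3.61 TPM over the wild-type ones (SD; exact permutation p = 0.258). The 340-nucleotide transcript averaged 1.77 ± 1.17 TPM over the het libraries and 2.04 ± 2.08 TPM over the wild-type ones (SD; exact permutation p = 0.961).

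**Figure D1:**
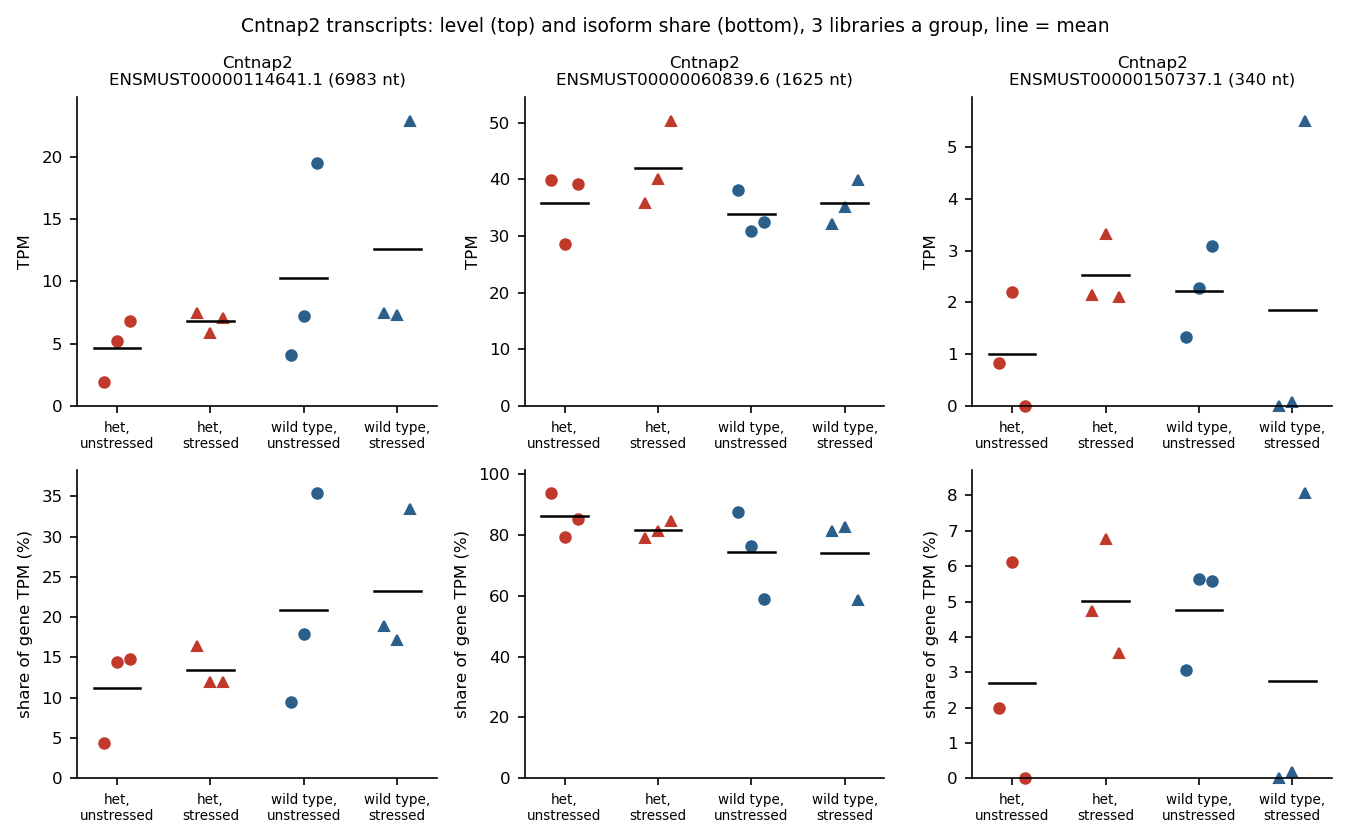
The 3 Cntnap2 transcripts in each library, as TPM (upper panels) and as a percentage of the gene's TPM (lower panels), by genotype and prenatal condition, with 3 libraries a group and lines at the group means. The long transcript is at 1.89 to 7.46 TPM in het libraries and at 4.12 to 22.86 TPM in wild-type libraries, while the short one is at 28.55 to 50.26 and 30.79 to 39.91 TPM.

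The long transcript followed the length slope within each genotype. Its share and the length slope had a Pearson r of 0.803 and a Spearman rho of 0.503 over the 12 libraries, 0.627 (Pearson) without the 2 libraries of most extreme slope, 0.888 over the 6 het and 0.992 over the 6 wild-type libraries. Both measures come from the same libraries, so these values are descriptions. The length slope was therefore entered as a covariate, an alternative chosen with earlier results of these data known. Other fits with the slope, by other tools, by prenatal condition or with libraries left out, were added after seeing the data.

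With that covariate, edgeR gave the long transcript a log2 fold change of -0.82 ± 0.06 (SE), which puts the het level at 56.6% of wild type (quasi-likelihood test, adjusted p = 0.00412). It had the smallest p of the 37796 transcripts, of which 2 were called (0.00529%), the other being Gm6736, described below. With the same covariate DESeq2 called 55 transcripts, limma-trend 3 and limma-voom 2, the long Cntnap2 transcript among them each time. The spread within genotypes narrowed at the same time: in a linear fit of log2 CPM, values moved to the mean slope were 22.8 to 31.7 CPM in het libraries with a median of 26.4, against 41.3 to 53.1 CPM with a median of 47.3 in wild-type libraries. The genotypes did not overlap on that scale, whereas the unmoved values, 13.7 to 35.4 CPM in het and 25.2 to 93.9 CPM in wild-type libraries, did. That linear fit also contains genotype, so the separation is the same result as the test and not a second one. The difference was -0.81 in unstressed and -0.84 in stressed mice, and the 2 differed by -0.03 (unadjusted p = 0.828 by edgeR's quasi-likelihood test). Within a single prenatal condition the transcript was not called (edgeR adjusted p = 0.198 unstressed and 0.228 stressed).

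The short transcript had a log2 fold change of 0.14 ± 0.12 (SE) in the same fit (edgeR adjusted p = 1). At the mean slope it was at 31.6 to 51.3 CPM in het and at 34.3 to 45.2 CPM in wild-type libraries, which overlap. Fits added after seeing the data left out each library in turn. With the slope, the long transcript stayed called in all 12, at log2 fold changes of -0.85 to -0.79 and edgeR adjusted p of 0.00775 to 0.0362. It was not called with both unstressed replicates 1 left out together, at a log2 fold change of -0.82 and an adjusted p of 0.0783. Of share, the fit with the slope gave a log2 ratio of -0.88 ± 0.18 (SE; limma unadjusted p = 0.000528, adjusted p = 0.961), so the share of the long transcript did not pass across all 19238 transcripts.

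**Figure D2:**
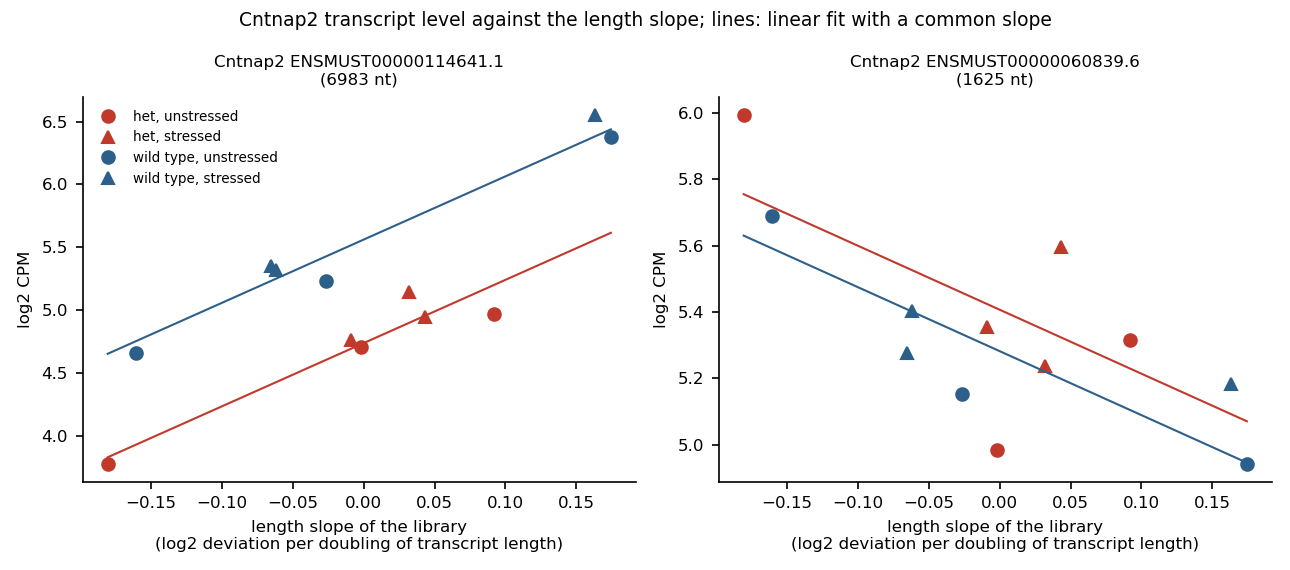
Level of the long (left) and the short (right) Cntnap2 transcript as log2 CPM, against the length slope of the library, with 1 point a library and lines from a linear fit with a slope common to both genotypes. The lines of a transcript are parallel by construction, so the distance between them is the fitted genotype difference. The het line of the long transcript lies below the wild-type line, and the lines of the short transcript lie close together. The highest slope of a het library is 0.0916, and the het lines are drawn beyond it.

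Across all transcripts, edgeR called 1 of 37796 at an adjusted p below 0.05 without the length slope (0.00265%). At an unadjusted p below 0.05 there were 494 transcripts (1.31%), 245 higher (0.648%) and 249 lower (0.659%) in het mice. By direction alone, 50.8% of the tested transcripts were higher in het mice. The 6 het and 6 wild-type libraries did not overlap in CPM for 44 transcripts (0.116%), 21 higher (0.0556%) and 23 lower (0.0609%) in het mice. The median log2 fold change over all tested transcripts was 0.0036, and the biological coefficient of variation was 0.695.

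The called transcript belongs to Gm6736, a pseudogene on chromosome 12, which has a single listed transcript, ENSMUST00000166583.1. It had 13.29, 14.27 and 16.61 TPM as the lowest, median and highest het value, while 5 wild-type libraries were listed at 0 and unstressed replicate 2 at 0.21 TPM. The genotypes stood far apart, with 1804.5 expected counts summed over het libraries and 3.56 over wild-type libraries. The fitted log2 fold change was 8.31 ± 0.77 (SE; edgeR adjusted p = 0.0144). Both the fold change and the SE derived from it depend on the prior count, because the wild-type level is near 0. Reads of a pseudogene could come from a near-identical copy. Leaving out 1 library kept the direction in 12 of 12 fits, but 9 of them lost the call, with adjusted p of 0.00409 to 0.0796 over the 12 fits.

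Umad1, on chromosome 6 like Cntnap2, had the next smallest p. Its transcript ENSMUST00000159335.1 had 9.26, 15.37 and 17.73 TPM as the lowest, median and highest het value, against 6.15, 8.36 and 9.92 TPM in wild-type mice. Of the het libraries, unstressed replicate 1 lay below the highest wild-type library in TPM, and in CPM the genotypes did not overlap. Its log2 fold change was 0.83 ± 0.11 (SE; edgeR adjusted p = 0.236), and 0.83 ± 0.10 with the length slope (adjusted p = 0.123). Its share of Umad1 RNA had a median of 30.3% in het and 19.6% in wild-type mice, and the lowest het share equalled the highest wild-type share to 3 digits, at 23.3%. The share test gave a log2 ratio of 0.81 ± 0.18 (SE; limma adjusted p = 1).

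Among the other transcripts higher in het mice by unadjusted p, Gm10800 ENSMUST00000099683.1, a predicted gene with 1 listed transcript, had 2.95, 3.76 and 5.16 TPM as the lowest, median and highest het value and 0 to 0.44 TPM in wild-type libraries, with 4 libraries listed at 0 (edgeR adjusted p = 1). Cd200 encodes a neuronal surface ligand of a receptor on microglia. Its transcript ENSMUST00000171855.1 had 2.14, 3.82 and 7.78 TPM in het mice, against 0.35, 1.01 and 2.32 TPM in wild-type mice (log2 fold change 1.76 ± 0.46, SE; edgeR adjusted p = 1). Skap1, an adaptor protein of T cells, had 1.15, 1.41 and 1.81 TPM of ENSMUST00000071510.7 in het mice, against 0.39, 0.75 and 0.88 TPM in wild-type mice. Those Skap1 values did not overlap, and the log2 fold change was 1.07 ± 0.28 (SE; edgeR adjusted p = 1).

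Fyb, an adaptor of immune cells, had 1.61, 2.01 and 4.32 TPM of ENSMUST00000162154.1 in het mice and was listed at 0 in 5 wild-type libraries, with 0.69 TPM in the other one. Markers of microglia, the immune cells of the brain, summed to 192.5 to 281.4 TPM over 6 genes in het and to 212.2 to 285.7 TPM in wild-type libraries, which overlap.

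On the lower side, several rare transcripts were listed at 0 in het libraries. Nsmaf encodes an adaptor that links a tumour necrosis factor receptor to sphingomyelinase. Its transcript ENSMUST00000156715.1 was listed at 0 in 5 het libraries and at 0.02 TPM in the other, against 1.09, 1.69 and 3.62 TPM as the lowest, median and highest wild-type value. Esrra, a nuclear receptor of energy metabolism, had 0 TPM of ENSMUST00000173635.1 in all het libraries, against 0.55, 2.50 and 8.71 TPM in wild-type libraries. Neither passed in edgeR (adjusted p = 1 for both), although the genotypes did not overlap.

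Several transcripts among those of smallest p were above 0 in a single group only. For Phyhd1 ENSMUST00000113645.1 and Inpp4b ENSMUST00000109851.2 that group was unstressed het mice. For Entr1 ENSMUST00000114102.3, Rrp1 ENSMUST00000092345.6 and Kmt5b ENSMUST00000113974.3 it was unstressed wild-type mice. Another pair of transcripts was listed at 0 everywhere except in stressed wild-type mice. These were Mbnl2 ENSMUST00000022738.8, of a splicing factor gene, at 5.02, 4.99 and 10.69 TPM in that group, and Traf3 ENSMUST00000117269.1, of an immune signalling gene, at 0.66, 0.99 and 1.35 TPM. Both had an edgeR adjusted p of 1 for genotype. Neither had an interaction called by edgeR, but with both unstressed groups listed at 0 that test could not decide the question. Also lower in het mice by unadjusted p, and above 0 in all 12 libraries, were Srsf11 ENSMUST00000127778.1 and Pde4b ENSMUST00000171667.1. Srsf11, a splicing factor, had 8.55, 11.8 and 16.1 TPM in het mice, against 15.9, 18.9 and 23.9 TPM in wild-type mice (log2 fold change -0.73 ± 0.18, SE; edgeR adjusted p = 1). Pde4b, an enzyme that breaks down cyclic AMP, had 0.39, 0.55 and 0.74 TPM in het mice, against 0.67, 1.08 and 1.38 TPM in wild-type mice (log2 fold change -0.88 ± 0.28, SE; edgeR adjusted p = 1). For Srsf11 only the highest het library, unstressed replicate 3, lay above the lowest wild-type library in TPM, and for Pde4b 2 het libraries did, at 0.71 and 0.74 TPM.

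**Figure D3:**
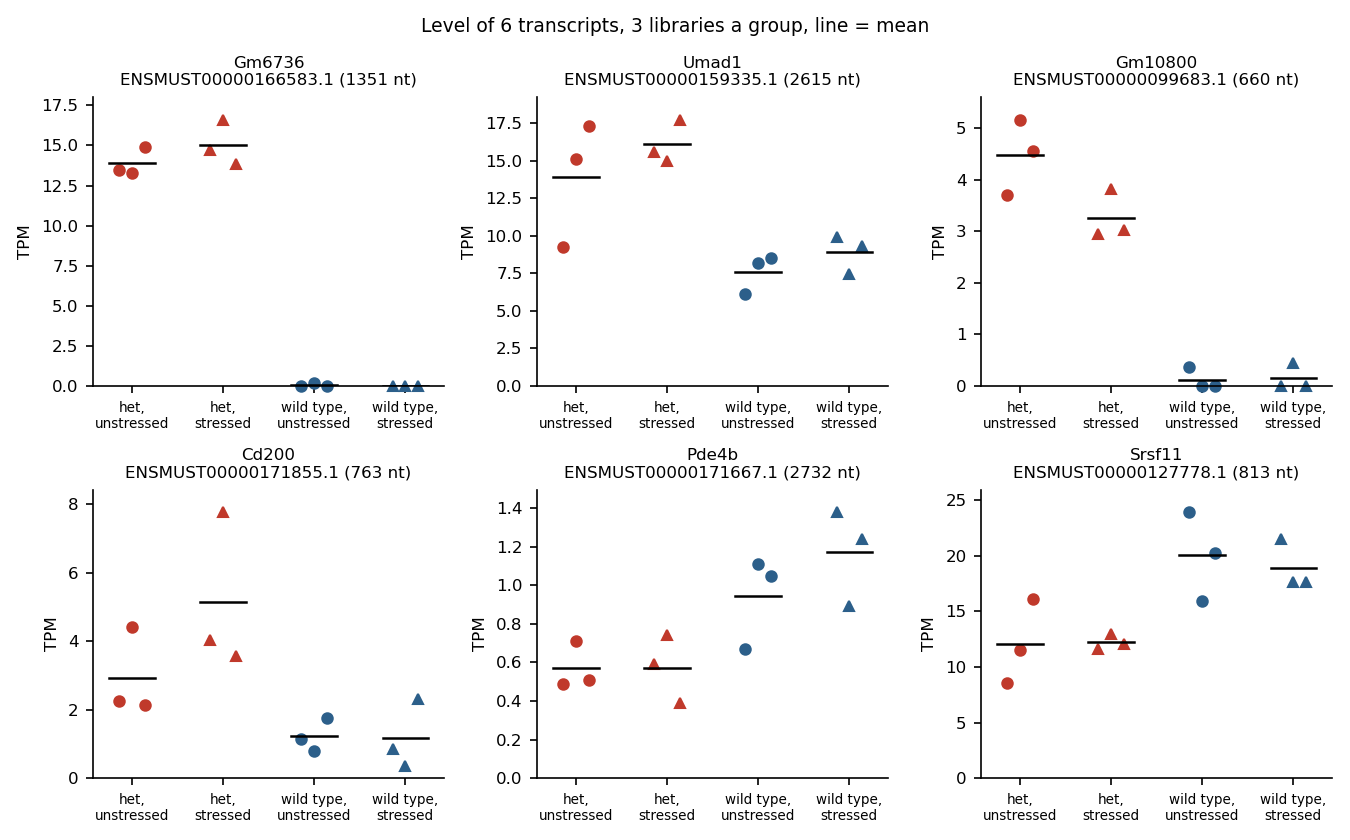
Level in TPM of 6 transcripts in each library, by genotype and prenatal condition, with lines at the means of 3 libraries. Gm6736 is at 13.29 to 16.61 TPM in het libraries and at 0 to 0.21 TPM in wild-type libraries; the other 5 transcripts did not pass the adjusted test.

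Isoform share had no call: limma gave 0 of 19238 transcripts at an adjusted p below 0.05 (0%) and 624 at an unadjusted p below 0.05 (3.24%), and the diffSpliceDGE test of edgeR called 2. For 23 transcripts (0.12%) the 6 het and 6 wild-type shares did not overlap, 9 higher (0.0468%) and 14 lower (0.0728%) in het mice. The median difference between the genotype means, sign left out, was 1.97 percentage points, less than the median SD within a group of 5.43 points. A difference of at least 10 points was seen for 766 transcripts, 3.98% of those tested. In 23.4% of the tested transcripts at least 1 library was listed at 0.

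Rbm7, a subunit of the complex that directs nuclear RNA to the exosome, had the widest difference in share among the tested transcripts whose shares did not overlap. Its 2 transcripts are 1773 and 1776 nucleotides long and so nearly the same length. The share of ENSMUST00000048956.8 was 65.3, 49.2 and 100% in unstressed and 100, 6.84 and 4.93% in stressed het mice, against 0, 0.0254 and 3.41% in unstressed and 0.398, 4.33 and 0% in stressed wild-type mice. Every het share was above every wild-type share, but those of stressed het replicates 2 and 3 lay far below the other het shares and close to the highest wild-type share. The summed level of the gene had a median of 40.6 TPM in het libraries and 39.5 TPM in wild-type libraries. The log2 ratio of share was 6.45 ± 1.73 (SE; limma adjusted p = 1). How well the reads tell the 2 transcripts apart was not tested.

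Among transcripts with a higher share in het mice were those of Trit1, Gtdc1, Gyg and Dnajc8. Trit1 modifies transfer RNA, and its ENSMUST00000147165.1 had a share of 33.3, 48.8 and 55.3% as the lowest, median and highest het value, against 20.8, 30.5 and 34.6% in wild-type mice (log2 ratio 1.0 ± 0.22, SE; limma adjusted p = 1). Only the lowest het share fell within the wild-type range. Gtdc1, a glycosyltransferase-like gene, had 66.3, 69.5 and 75.1% of ENSMUST00000112810.1 in het mice, against 54.7, 58.9 and 65.3% in wild-type mice. Gyg, which primes glycogen synthesis, had 56.6, 57.2 and 64.8% of ENSMUST00000119748.1 in het mice, against 45.2, 52.7 and 54.3% in wild-type mice. Dnajc8, a chaperone of the splicing machinery, had 54.4, 55.2 and 60.7% of ENSMUST00000094657.3 in het mice, against 44.5, 50.6 and 53.0% in wild-type mice. The genotypes did not overlap for these last 3 genes, and none passed the adjusted test (limma adjusted p = 1 for each).

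For Phactr1, an abundant regulator of protein phosphatase and actin, ENSMUST00000128646.1 took 83.8, 87.3 and 90.1% of the gene in het mice, against 73.2, 79.7 and 85.7% in wild-type mice, a log2 ratio of 0.82 ± 0.20 (SE; limma adjusted p = 1). Drosha, the nuclease that starts microRNA processing, had 5.05, 12.5 and 30.4% of ENSMUST00000129031.1 in het mice and 0% in 4 wild-type libraries, with 7.74 and 21.9% in the others. Itsn1, an endocytic scaffold, had 3.8, 8.16 and 15.8% of ENSMUST00000056482.7 in het mice and 0 to 4.91% in wild-type mice. Both overlapped between the genotypes.

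Lower shares in het mice were led by Nsmaf, where ENSMUST00000156715.1 held 0 to 0.147% in het mice, against 6.85, 14.6 and 21.0% as the lowest, median and highest wild-type value. Its limma adjusted p was 0.156, the smallest of the share test, while diffSpliceDGE gave 0.00136 and the arcsine scale 0.0238. Odf2l had 28.4, 37.4 and 51.1% of ENSMUST00000029920.8 in het mice, against 51.3, 59.2 and 66.2% in wild-type mice (log2 ratio -0.98 ± 0.20, SE; limma adjusted p = 1). Ift20, of the intraflagellar transport machinery that builds cilia, had 2.77, 6.83 and 9.91% of ENSMUST00000050366.8 in het mice, against 11, 14.6 and 16.3% in wild-type mice. The genotypes did not overlap for any of these transcripts.

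Nol11, a nucleolar protein of ribosome assembly, had 62.3, 84.7 and 88.2% of ENSMUST00000018577.7 in het mice, against 89.3, 96.1 and 99.2% in wild-type mice. Its level was close to equal, at a median of 9.05 TPM in het libraries and 8.73 TPM in wild-type libraries (the level difference was not called). Slc25a1, the mitochondrial citrate carrier, had 17.9, 19.8 and 20.8% of ENSMUST00000129270.1 in het mice, against 21.0, 27.2 and 31.1% in wild-type mice. Fam45a had 0% of ENSMUST00000142375.1 in 4 het libraries and 2.95 and 4.68% in the others, against 6.81, 9.59 and 15.5% in wild-type mice. Adarb1, an enzyme that edits adenosine in RNA, had 0.0596, 0.657 and 5.32% of ENSMUST00000020496.7 in het mice, against 3.14, 20.4 and 40.4% in wild-type mice. Adarb1 overlapped in 1 wild-type library, stressed replicate 3, and the others named here did not; none of the 4 passed (limma adjusted p = 1).

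Med23, a subunit of the Mediator complex, shows a limit of such shares. Its transcripts ENSMUST00000168046.1 and ENSMUST00000020159.7 have the same length of 4928 nucleotides and the same value in every library, 0 in 5 het libraries and 3.97% in the other, against 4.09, 7.97 and 22.4% in wild-type mice. With the same value in every library, the 2 count as 1 observation.

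Zfp451, which encodes a SUMO ligase, had a pair of transcripts whose shares differed between the genotypes in opposite directions. The share of ENSMUST00000139143.1 was 25, 28.5 and 37.3% as the lowest, median and highest het value, against 0, 12.4 and 26.9% in wild-type mice (log2 ratio 1.54 ± 0.36, SE; limma unadjusted p = 0.00117, adjusted p = 1). The share of ENSMUST00000019861.6 was 4.81, 12.1 and 21.9% in het mice, against 14.4, 32.3 and 46.1% in wild-type mice (log2 ratio -1.31 ± 0.27, SE; limma unadjusted p = 0.000531, adjusted p = 1). Both overlapped in a few libraries.

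**Figure D4:**
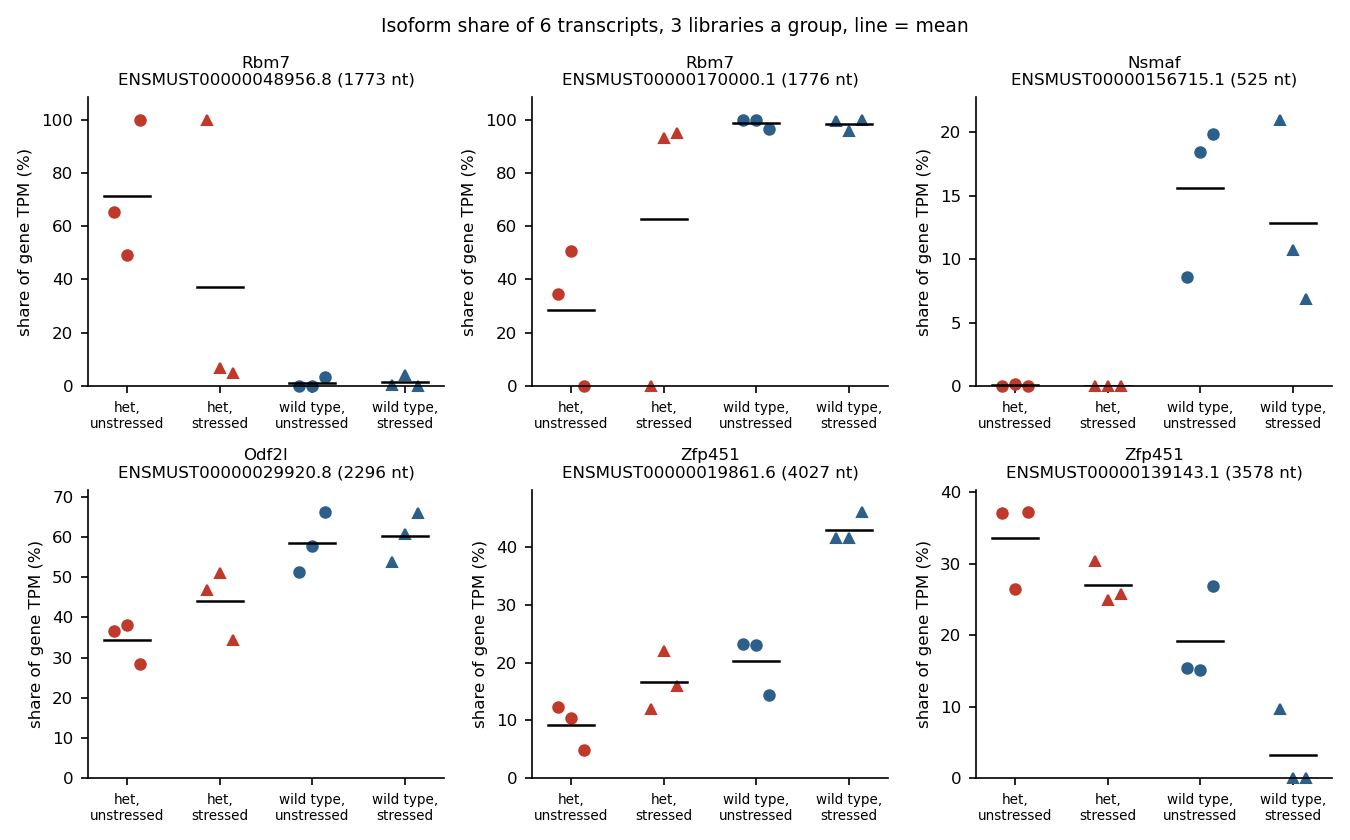
Share of the gene's TPM taken by 6 transcripts in each library, by genotype and prenatal condition, with lines at the means of 3 libraries. The 2 Rbm7 transcripts mirror each other by construction, and the het shares of Rbm7 ENSMUST00000048956.8 spread from 4.93 to 100%; none of the 6 transcripts passed the adjusted test.

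The most abundant transcript of a gene was mostly the same in both genotypes. Of 7969 genes with at least 2 transcripts and at least 5 TPM, 5517 (69.2%) had the same leading transcript in all 12 libraries. For 384 genes (4.82%) the leading transcript by mean differed between het and wild type. In 8 of these, picked out after their values were seen, at least 5 of 6 libraries of each genotype had their own genotype's leader; they were Rtn1, B3gnt2, Clk1, Ubqln1, 2610005L07Rik, Fam229b, Setd5 and Apool. Apool, a mitochondrial inner membrane protein, came closest to a full switch. Its ENSMUST00000113414.2 led in 5 het and 0 wild-type libraries, with mean shares of 51.9% in het and 34.2% in wild-type mice, and ENSMUST00000026599.3 held 43.3% in het and 63.5% in wild-type mice.

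Clk1, a kinase of splicing factors, had mean shares of ENSMUST00000148330.1 of 42.1% in het and 30.9% in wild-type mice, and of ENSMUST00000034868.7 of 35.4% in het and 45.4% in wild-type mice. In Rtn1, an abundant reticulon of the endoplasmic reticulum, the leaders were near even, with ENSMUST00000137990.1 at 44.2% in het and 40.5% in wild-type mice and ENSMUST00000021497.9 at 40.4% in het and 44.6% in wild-type mice. None of these transcripts passed the share test (limma adjusted p = 1 for each).

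Among 40 genes of the Caspr2 complex and its neighbours (contactins, potassium channels, 4.1 proteins, ADAM and LGI partners), 163 transcripts were tested for level. The list had 71 transcripts higher and 92 lower in het mice, a median log2 fold change of -0.06, and 3 at an unadjusted p below 0.05 (1.84%, against 1.31% over all), including the long Cntnap2 transcript; none was called. In share, 5 of 82 transcripts reached that p (6.10%, against 3.24% over all), and none was called. Epb41l2 encodes protein 4.1G, a membrane skeleton protein. Its ENSMUST00000053748.7 had a share of 1.09, 16.5 and 29.8% as the lowest, median and highest het value, against 0.201, 0.814 and 7.99% in wild-type mice. The level of that transcript was 0.21, 6.66 and 11.99 TPM in het libraries and 0.09, 0.33 and 2.77 TPM in wild-type libraries. Only het unstressed replicate 1 fell within the wild-type range. The limma adjusted p of the share was 1 (log2 ratio 2.69 ± 0.64, SE), and diffSpliceDGE gave 0.0248.

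Adam22, a synaptic receptor of LGI1, had 8.56, 17.2 and 26.3% of ENSMUST00000088761.4 in het mice, against 0, 0.386 and 12.6% in wild-type mice (log2 ratio 2.06 ± 0.50, SE; limma adjusted p = 1). Kcnab3, a subunit of potassium channels, had 18.6, 25.6 and 37.5% of ENSMUST00000142328.1 in het mice, against 0, 14.5 and 35.4% in wild-type mice, with wide overlap (limma adjusted p = 1).

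Splicing regulators, 55 genes with 269 transcripts tested for level, had 120 higher and 149 lower, a median log2 fold change of -0.03, and 7 at an unadjusted p below 0.05 (2.60%, against 1.31% over all). In share, 4 of 166 reached it (2.41%, against 3.24% over all). Mbnl1, a muscleblind splicing factor, had 1.86, 2.78 and 4.27 TPM of ENSMUST00000166251.1 in het mice, against 0.74, 1.25 and 3.50 TPM in wild-type mice (log2 fold change 1.01 ± 0.27, SE; edgeR adjusted p = 1). Its share was 9.52, 12.0 and 15.8% in het mice, against 4.28, 5.76 and 13.0% in wild-type mice. Wild-type unstressed replicate 3, one of the libraries of highest length slope, was the only one of its genotype within the het range. Ptbp1, a repressor of neuronal exons, had 0, 1.32 and 27.1% of ENSMUST00000169726.1 in het mice, against 5.02, 18.9 and 27.2% in wild-type mice (limma adjusted p = 1). Srsf11, described above by level, held 13.6, 15.6 and 22.9% in het mice, against 22.3, 24.3 and 30.1% in wild-type mice (log2 ratio -0.74 ± 0.19, SE; limma adjusted p = 1).

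Synaptic genes known for their isoforms, 55 genes such as neurexins and channels, had 275 transcripts tested for level, of which 111 were higher and 164 lower, with a median log2 fold change of -0.08 and 6 at an unadjusted p below 0.05 (2.18%, against 1.31% over all). In share, 3 of 163 reached it (1.84%, against 3.24% over all). Exoc1, of the exocyst that tethers vesicles, had 5.23, 6.72 and 9.76 TPM of ENSMUST00000049469.6 in het mice, against 3.91, 5.87 and 6.97 TPM in wild-type mice (edgeR adjusted p = 1). Bdnf, a neurotrophin, had at most 0.49 TPM of ENSMUST00000111051.2 in het libraries, against at most 0.11 TPM in wild-type libraries.

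Striatal neuron genes, 48 in number, had 189 transcripts tested, 117 higher and 72 lower, a median log2 fold change of 0.07 and 4 at an unadjusted p below 0.05 (2.12%, against 1.31% over all). In share, 0 of 85 reached it. Ppp1r1b encodes DARPP-32, a phosphatase inhibitor of medium spiny neurons downstream of dopamine. Its minor transcript ENSMUST00000137634.1 had 10.43, 14.8 and 19.5 TPM in het mice, against 16.6, 29.0 and 44.5 TPM in wild-type mice (log2 fold change -1.09 ± 0.28, SE; edgeR adjusted p = 1). That was a median of 0.702% of the gene in het and 1.43% in wild-type mice, and the ranges overlapped in a few libraries. Itpr1 ENSMUST00000165865.1, of a calcium release channel, had 56.9, 64.2 and 83.2 TPM in het mice, against 32.4, 54.2 and 69.7 TPM in wild-type mice, and Arpp21 ENSMUST00000159220.1, of a cyclic AMP-regulated phosphoprotein gene, had 47.5, 58 and 66.4 TPM in het mice, against 31.7, 39.7 and 54.5 TPM in wild-type mice. Both overlapped (edgeR adjusted p = 1).

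Activity-regulated genes, 34 in number, had 81 transcripts tested, 54 higher and 27 lower in het mice where 50.8% of all transcripts were higher, a median log2 fold change of 0.15 and 3 at an unadjusted p below 0.05 (3.70%, against 1.31% over all). In share, 1 of 33 reached it (3.03%, against 3.24% over all). Junb, an immediate early transcription factor with a single listed transcript, ENSMUST00000064922.4, had 55.5, 90.1 and 91.8 TPM in het mice, against 49.7, 61.4 and 72.3 TPM in wild-type mice (log2 fold change 0.35 ± 0.12, SE; edgeR adjusted p = 1). Tiparp ENSMUST00000047906.3, of an ADP-ribosyltransferase gene, had 10.5, 11.9 and 17.7 TPM in het mice, against 6.68, 10.4 and 12.3 TPM in wild-type mice. Both overlapped between the genotypes.

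Immature neuron genes, 21 in number, had 44 transcripts tested, 13 higher and 31 lower, a median log2 fold change of -0.17 and 0 at an unadjusted p below 0.05. Sox11, a transcription factor of young neurons with 1 listed transcript, ENSMUST00000079063.5, had 0.54, 1.18 and 1.86 TPM in het mice, against 0.83, 1.66 and 2.69 TPM in wild-type mice. Myelin genes, 30 in number, had 96 transcripts tested, 36 higher and 60 lower, a median of -0.05 and 1 at that p (1.04%, against 1.31% over all), Bcas1 ENSMUST00000145920.1, at 0.77, 0.905 and 1.34 TPM in het mice, against 0.27, 0.535 and 0.79 TPM in wild-type mice. Glial and vascular genes had 64 tested, 34 higher and 30 lower, with 1 at that p (1.56%, against 1.31% over all), Vim ENSMUST00000028062.2, listed at 0 in all het libraries and at 3.27, 4.89 and 3.59 TPM in 3 wild-type libraries. Chromatin and 5hmC genes had 76 tested, 35 higher and 41 lower, with 1 at that p (1.32%, against 1.31% over all), Hdac5 ENSMUST00000008999.5, a histone deacetylase, at 0.72, 1.43 and 2.47 TPM in het mice, against 0.26, 0.535 and 1.10 TPM in wild-type mice. None of these transcripts passed the adjusted test (edgeR adjusted p = 1 for each).

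Genes of other brain regions, which a micropunch could include, had 33 transcripts tested, 11 higher and 22 lower, a median log2 fold change of -0.32 and 3 at an unadjusted p below 0.05 (9.09%, against 1.31% over all). Prkcd ENSMUST00000140701.1, of a kinase abundant in thalamus, had 0.29, 0.535 and 0.87 TPM in het mice, against 0.44, 1.10 and 2.89 TPM in wild-type mice. The 5 thalamic markers summed to 25.38 to 43.05 TPM in het and 26.0 to 125.9 TPM in wild-type libraries, where unstressed replicate 3 was highest. Choroid plexus markers, 8 genes, summed to 10.5 to 860.6 TPM in het and 7.07 to 584.6 TPM in wild-type libraries, and 5 cortical markers to 15.4 to 157.5 TPM in het and 18.5 to 145.5 TPM in wild-type libraries. The ranges of all 9 marker lists overlapped between the genotypes, no marker gene was at 0 in all 12 libraries, and the part of tissue make-up in the transcript results was not tested. In bulk tissue, fewer cells of a type and less RNA per cell cannot be told apart.

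Whether the genotype difference depended on the prenatal condition was tested as an interaction, and no transcript passed. The interaction test of edgeR called 0 of 37796 transcripts, with 804 (2.13%) at an unadjusted p below 0.05, and that of limma on share 0 of 19238, with 718 (3.73%). DESeq2 called 153 interactions of level. Within unstressed mice edgeR called 1 transcript (0.00265%; 778, or 2.06%, at an unadjusted p below 0.05), and within stressed mice 0 of 37796 (0%; 627, or 1.66%, unadjusted). The call within unstressed mice was ENSMUST00000028155.5 of Tsc1, a gene of the tuberous sclerosis complex that restrains mTOR signalling. It had 0, 0.03 and 0 TPM in unstressed and 6.87, 3.75 and 7.82 TPM in stressed het mice, against 1.46, 2.65 and 2.06 TPM in unstressed and 4.18, 4.42 and 8.94 TPM in stressed wild-type mice. The unstressed genotypes did not overlap, and the stressed ones did. The adjusted p of edgeR's quasi-likelihood test was 0.0477 without stress and 1 with it. For the interaction the edgeR adjusted p was 0.1998 (unadjusted p = 5.96e-06), so the difference between the conditions did not pass. These tests were made without the length slope. With the slope in the model, edgeR called 0 of 37796 transcripts within unstressed mice, so the Tsc1 call was not kept. That fit was added after seeing the data.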

How the data were processed

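RNA of 12 striata was sequenced with 1 library a mouse. The submitters' processing notes name RSEM, Bowtie and the build mm9 (NCBIM37), without versions. The deposited isoform files give, per the file headers, an expected count (an estimate that need not be whole) and a TPM for each transcript in each library, where TPM is corrected for length and scaled by the authors to a fixed sum. Effective lengths were the length minus 100 nucleotides in the files.

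Rounded expected counts that passed filterByExpr were TMM-scaled and fitted with edgeR 4.0.16 (quasi-likelihood test, robust; genotype plus prenatal condition) in R 4.3.3. CPM are those counts relative to the TMM-scaled library size. The SE of an edgeR log2 fold change is its absolute value over the square root of the test's F statistic. It is thus derived from the test, and it is not a measure of precision where the level of a genotype is near 0. Share was tested with limma 3.58.1 on log2((TPM + 0.5) / (rest of gene + 0.5)), for genes with a mean of at least 5 TPM and mean shares of 5 to 95%. P-values are two-sided, adjusted by Benjamini-Hochberg and called at 0.05. Cntnap2 was also tested by exact permutation of 6 against 6 libraries (924 splits, smallest p 0.00216). The length slope used transcripts with a mean of at least 1 TPM. DESeq2 1.42.0 was an alternative. The tests were checked on simulated counts (level) and shuffled libraries (share), each with 200 transcripts changed. The level test recovered 13.5% of those changed 2-fold and 56.5% of those changed 4-fold. The share test recovered 50.5% of those raised by 20 points and 87.5% of those raised by 40 points. Changes of these sizes can therefore go uncalled. Unchanged transcripts were also called: 4 in each of the level checks, and 5 (20 points) and 8 (40 points) in the share checks.

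Symbols were found for 94.4% of transcripts, and chromosomes came by symbol from a RefSeq table of GRCm38.p6. Members, lists, covariates and named-transcript rules were chosen with earlier results of these data known. Named transcripts are those of Cntnap2, called ones, the 10 of smallest p in each direction, the first 3 of each list, and those without overlap, of which the text gives a part. Replicates are separate mice, but litters are not given, so the p-values speak of the spread among the mice sampled. No pair of libraries within a group was as alike as sampling noise would make it (chi-square per transcript 13.2 to 123), and all 12 were kept.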

Additional observations from a re-analysis of the deposited data

Results flagged for a closer look

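In 24 of 132 sets of 6 libraries the highest or lowest library stood apart by Dixon's ratio. For independent sets of normal spread, chance flags about 1 in 20, or 6.6 of these. Here some sets are at 0 in every library but 1, and some come from the same transcript, so 24 cannot be read against 6.6. Wild-type stressed replicate 1 had the fewest expected counts of its genotype, 13587153. Het unstressed replicate 1 had a length slope of -0.181, and it was also apart with 9.26 TPM of Umad1 ENSMUST00000159335.1, 4.32 TPM of Fyb ENSMUST00000162154.1, a 60.7% share of Dnajc8 ENSMUST00000094657.3 and a 59.5% share of Rtn1 ENSMUST00000021497.9. Het unstressed replicate 2 had the only Nsmaf ENSMUST00000156715.1 of its genotype, 0.02 TPM and 0.147%.

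Het unstressed replicate 3 stood apart with a 22.9% share of Srsf11 ENSMUST00000127778.1 and a 62.3% share of Nol11 ENSMUST00000018577.7. In het stressed replicate 1 the 2 Med23 transcripts had 3.97% each and Bcas1 ENSMUST00000145920.1 had 1.34 TPM. Het stressed replicate 3 had 64.8% of Gyg ENSMUST00000119748.1 and 17.72 TPM of Tiparp ENSMUST00000047906.3.

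Among wild-type libraries, unstressed replicate 2 had 0.21 TPM of Gm6736, 2.77 TPM of Epb41l2 ENSMUST00000053748.7 and 7.99% of that gene. Unstressed replicate 3 had 3.5 TPM and 13.0% of Mbnl1 ENSMUST00000166251.1 and 21.9% of Drosha ENSMUST00000129031.1. Stressed replicate 1 had 0.11 TPM of Bdnf ENSMUST00000111051.2, stressed replicate 2 had 0.69 TPM of Fyb, and stressed replicate 3 had 45.2% of Gyg. The part of the libraries in these values was not tested.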

How the results depend on the processing

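The count of called transcript levels was 1 in the edgeR fit reported. It was 8 with DESeq2, 2 with limma-trend on log2(TPM + 1), 2 with the length slope and 0 with 4 group means. With the slope it was 55 in DESeq2 and 3 in limma-trend, both added after seeing the data. It was 0 with both unstressed replicates 1 left out, also with the slope (a fit added after seeing the data), and 0 to 2 with 1 library left out. It was 1 with other size factors, other filters, voom weights, or libraries thinned to 13586867 counts (also added). Share had 2 calls with diffSpliceDGE, 1 on the arcsine scale, 1 at a pseudocount of 0.1 TPM and 0 to 2 with 1 library left out. Interaction calls in level numbered 153 with DESeq2 and 0 to 4 with 1 library left out. The cause of these differences was not tested.

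For Cntnap2, the share difference of the long transcript stayed at -9.72 points with genotype permuted within prenatal condition, where the exact permutation p was 0.055, and ran from -12.2 to -7.06 with 1 library left out. Its level difference in log2(TPM + 1) ran from -0.955 to -0.511 with 1 library left out, and that of the short transcript from 0.0698 to 0.229. The 340-nucleotide transcript changed sign with 1 library left out, from -0.225 to 0.315 in level and from -0.648 to 0.964 points in share. DESeq2, voom and limma-trend with the slope, added after seeing the data, called the long transcript, at log2 fold changes of -0.84, -0.83 and -0.70. Of 1446 refits of the other values, 0 changed direction, 13 lost and 12 gained a call. Among those values only the level of Gm6736 was called in the fits reported, so all 13 lost calls were refits of Gm6736. The transcripts had been picked for their values in the same libraries, so a kept direction is not separate evidence.

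The replicate numbers were not taken to pair mice: deviations of same-numbered libraries had correlations of 0.393, 0.104 and 0.206 in unstressed and -0.0245, 0.0414 and 0.0222 in stressed mice. Libraries of different numbers had correlations of -0.322 to 0.165 in unstressed and -0.0704 to 0.0474 in stressed mice. Whether the unstressed numbers share a factor was not tested, and the values with a replicate block are given as an alternative. With the replicate block, edgeR called 0 levels (Gm6736 lost its call), limma 0 shares and the interaction test 0, and the long Cntnap2 transcript had a level difference of -0.744 (exact sign permutation of 6 pairs, p = 0.0312, the smallest they can give is 0.03125). Of the transcripts tested for level, 29.5% were listed at 0 in at least 1 library (the part of depth was not tested), and RSEM splits reads of like transcripts by estimate.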

Other observations

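Chromosome 6, which carries Cntnap2, had 25 of 1811 tested transcripts at an unadjusted p below 0.05 in edgeR (1.38%, against 1.31% over all). For 2 of the 1811 the genotypes did not overlap in CPM, against 44 of 37796 over all (0.116%). With the transcripts split by length into 3 equal classes, the shortest class (102 to 1496 nucleotides) had a median log2 fold change of 0.0095 with 141 of 12597 at that p. By prenatal condition that median was 0.0596 in unstressed and -0.0501 in stressed mice. The middle class (1497 to 3118 nucleotides) had a median of 0.019 with 187 of 12600 at that p. Its medians were 0.0159 in unstressed and 0.0178 in stressed mice. The longest class (3119 to 52401 nucleotides) had a median of -0.017 with 166 of 12599 at that p, and medians of -0.0351 in unstressed and -0.00096 in stressed mice. Over all classes 494 of 37796 transcripts reached that p (1.31%). With both prenatal conditions together the medians did not run in order of length, while those in unstressed mice did.

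With the length slope in the model, the transcripts after Cntnap2 and Gm6736 in order of p were Umad1 ENSMUST00000159335.1, Slc22a23 ENSMUST00000099591.2 (log2 fold change -6.05 ± 0.76, SE; edgeR adjusted p = 0.123) and Akr1b3 ENSMUST00000102980.4 (-0.27 ± 0.04, SE; edgeR adjusted p = 0.345). Slc22a23 encodes an organic ion transporter-like protein and Akr1b3 an aldose reductase. Neither passed the threshold.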
